A study of Mus musculus with 8 samples.

Results

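Type I interferon-stimulated genes were followed in mouse pancreatic tumours treated with saline or with the peptide TLQP21. They were taken by symbol from a list of 32 genes that is typical of the type I interferon response. All 32 were found among the 54532 genes of the count table, and all 32 passed the filter on low counts that left 18238 genes for testing. The member with the fewest reads, Mx2, had 1708 over the 8 libraries. The tumours were grown in the pancreas of C57BL/6 mice from KPC cells, a mouse line of pancreatic ductal adenocarcinoma. Which alleles and which clone this line carries, and the age and sex of the mice, are not stated in these sources. One group of 4 libraries, Saline, came from mice given saline for 2 weeks, and the other group of 4, TLQP21, from mice given for 2 weeks TLQP21, a fragment of the secreted protein VGF, which is made by nerve and endocrine cells. Libraries of tumour-free pancreas were not analysed here. The series asks which transcripts differ in tumours whose growth the submitters report as reduced by the peptide.

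Type I interferons are secreted by cells that sense foreign or misplaced nucleic acid. They bind the receptor IFNAR1-IFNAR2, whose kinases JAK1 and TYK2 phosphorylate STAT2. With IRF9 it enters the factor ISGF3, which binds the interferon-stimulated response element in the promoters of target genes. The targets include sensors of viral RNA, the pathway's own transcription factors, enzymes and binding proteins that block viral replication, and the ubiquitin-like modifier ISG15 with its conjugation machinery. In pancreatic tumours such genes can be expressed by cancer cells, fibroblasts, macrophages and dendritic cells alike.

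The element that this pathway acts on can be read in the promoters of the members, so these are shown before the expression values. RefSeq promoter windows on GRCm38.p6, from 250 bases before to 50 bases after the start, were held for 23 of the 32 members. Of their 26 windows, 20 had bases after the start that are also in a GENCODE transcript of the gene. Those of Ifit3b, Bst2, Stat2 and Herc6 did not, nor did those at a second start of Ifit2 and of Trim30a. Distances in these windows hold for the RefSeq start only. A core of the response element was searched as GAAA, any 2 bases, GAAA on either strand, where matches may overlap one another. At least 1 core was present in 12 of the 23 members (52.2%), against 1079 of 27025 genes with a window (3.99%). At least 2 cores in 1 window were present in 6 members, against 72 genes (0.266%). The gamma-activated site, searched as TTC, any 3 bases, GAA, was present in 4 of the 23 members (17.4%), against 9.55% of genes. In Bst2 a match to this site overlaps the first core.

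Stretches around the cores are shown 5′ to 3′ on the strand of the gene, with the bases of the cores in capitals. Cores that lie on the other strand read TTTC, any 2 bases, TTTC. Isg15 is shown with the whole 250 bases before its start, chr4:156200819-156201068 (minus strand), because it has the largest number of cores, 3 overlapping ones that begin 78, 72 and 66 bases before the start.
Isg15: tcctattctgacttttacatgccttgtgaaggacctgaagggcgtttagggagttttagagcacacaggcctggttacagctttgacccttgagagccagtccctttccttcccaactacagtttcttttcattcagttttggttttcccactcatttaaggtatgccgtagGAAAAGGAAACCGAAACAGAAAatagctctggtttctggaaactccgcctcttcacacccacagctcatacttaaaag
Bst2, at chr8:71537572-71537617 (minus strand), and Oas1a, at chr5:120907526-120907560 (minus strand), have pairs of overlapping cores on the strand of the gene.
Bst2: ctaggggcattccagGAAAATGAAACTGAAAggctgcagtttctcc
Oas1a: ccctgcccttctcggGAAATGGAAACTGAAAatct
Ifit1, at chr19:34640770-34640828 (plus strand), Ifit3, at chr19:34583358-34583431 (plus strand), and Ifit3b, at chr19:34607754-34607827 (plus strand), have pairs of separate cores on the other strand.
Ifit1: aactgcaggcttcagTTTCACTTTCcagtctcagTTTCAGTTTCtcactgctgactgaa
Ifit3: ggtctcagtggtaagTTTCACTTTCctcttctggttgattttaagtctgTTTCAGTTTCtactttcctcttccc
Ifit3b: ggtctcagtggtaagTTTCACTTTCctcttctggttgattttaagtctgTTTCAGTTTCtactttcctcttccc
The stretches of Ifit3 and Ifit3b are identical over their 74 bases, although the cores begin 156 and 122 bases before the start of Ifit3 and 188 and 154 bases before that of Ifit3b. Oas3, at chr5:120777710-120777749 (minus strand), Rsad2, at chr12:26456548-26456587 (minus strand), Stat2, at chr10:128270261-128270300 (plus strand), and Trim30a, at chr7:104465205-104465244 (minus strand), have 1 core each in the stretches shown.
Oas3: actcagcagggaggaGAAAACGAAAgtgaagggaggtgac
Rsad2: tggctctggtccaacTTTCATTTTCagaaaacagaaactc
Stat2: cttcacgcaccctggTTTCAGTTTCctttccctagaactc
Trim30a: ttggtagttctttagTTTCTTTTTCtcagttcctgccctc
In Ddx58 and Ifih1 the core lies after the start, as does the core in a window at a second start of Trim30a. No core was found in the windows of Cmpk2, Dtx3l, Herc6, Ifi35, Ifi44, Ifit2, Irf7, Irf9, Oasl1, Oasl2 and Xaf1. This says only that these letters are not in these windows.

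**Figure D1:**
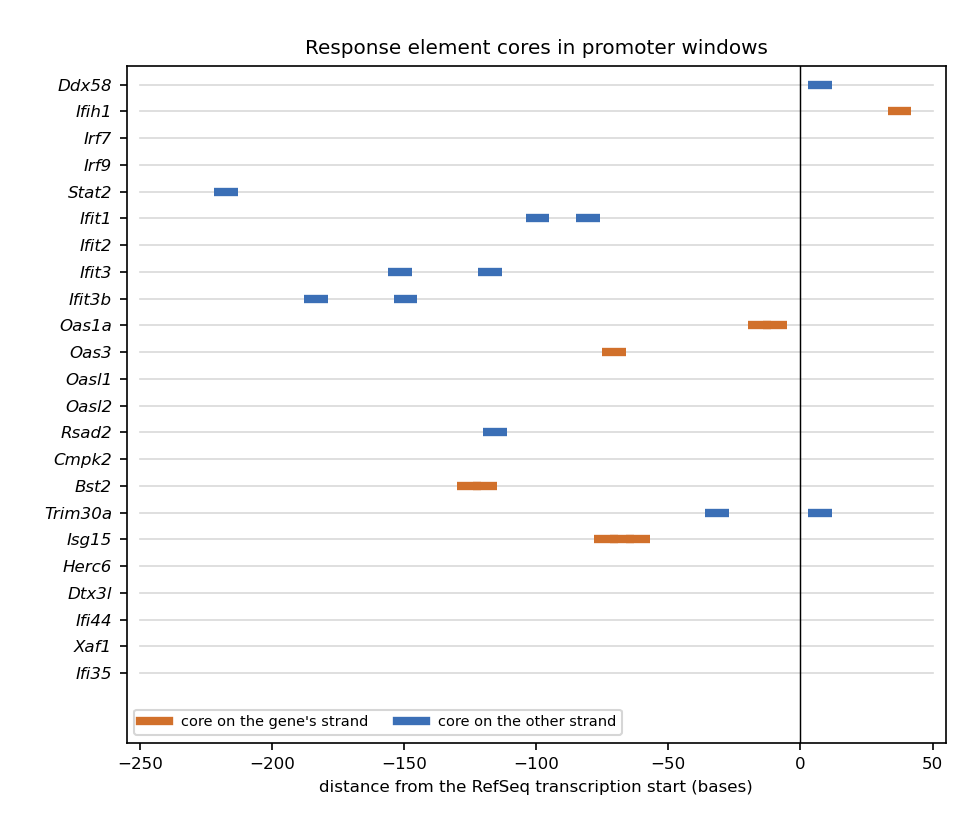
Response element cores (GAAA, any 2 bases, GAAA) in the RefSeq windows of 23 members, by distance in bases from the transcription start. Orange bars are cores on the strand of the gene and blue bars cores on the other strand, and the bars of genes with several starts are drawn on one line. Cores are drawn for 12 of the 23 genes, and all but those of Ddx58, Ifih1 and one of Trim30a lie before the start.

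Each library held 28.4 to 33.5 M counts, and the levels below are CPM, the counts of a gene relative to the library's total, after trimmed-mean (TMM) scaling of the totals. Whole tumours were sequenced, so that fewer cells of a type and less RNA per cell cannot be told apart. The tumour epithelium markers, which stand for the labelled KPC cells, summed to 6877 to 7636 CPM per library, and none of the 10 was at 0. Saline 2 stood apart through hepatocyte markers, which summed to 4527 CPM there and to 5.64 to 9.46 CPM in the others. TLQP21 4 is left out together with Saline 2 in an alternative taken over from an earlier analysis of these files, and whether it stands apart was not measured here. Libraries 1 and 2 of each group held 9960 to 10625 reads of Xist, the non-coding RNA that coats the silenced X chromosome, and libraries 3 and 4 at most 14. The Y-linked genes Kdm5d, Uty, Ddx3y and Eif2s3y together had 2027 to 2247 reads in libraries 3 and 4 and at most 20 in libraries 1 and 2. Each treatment thus had 2 libraries of either kind, a split that the labels do not mention and that is given beside the results. The labels do not tell whether each library is from its own mouse, and the spread that the p-values rest on may be technical in part.

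Interferon-stimulated genes lay slightly lower in the TLQP21 tumours, and no single one passed the test. Log2 fold changes were below 0 in 31 of the 32 members, against 49.4% of all genes tested. Their median was -0.20, against 0.002 for all genes, and they ran from -0.58 for Cmpk2 to 0.02 for Ddx58. The members moved together across libraries, so that these 31 are not independent observations. In edgeR's quasi-likelihood test 0 of 32 members passed an adjusted p of 0.05 (all at adjusted p = 0.9999), and 0 of 18238 genes did (0%). At an unadjusted p under 0.05, 5 members were lower in TLQP21 and 0 higher, against 2.26% of all genes that were lower (413, with 145 higher). DESeq2 also had 5 members at that level and limma's voom with quality weights 15, against 591 and 1932 of all 18238 genes in either direction, and no member passed after adjustment in either. Over all genes DESeq2 called 4 and limma's voom 1.

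A change of 2-fold or more in either direction was outside the 95% interval for 28 of the 32 members, and a fall of 1.5-fold or more was outside it for 12. Of all 18238 genes tested, 14518 and 12271 had such intervals. These intervals come from the fit without the kind of library. With kind as a covariate the members' median was -0.22, 31 were below 0 and 0 genes passed edgeR's test after adjustment. In that fit 12 members were lower at an unadjusted p under 0.05 and 0 higher, against 2.93% of all genes that were lower. The 95% interval lay within 2-fold for 30 members there and left out a fall of 1.5-fold for 18. Of all 18238 genes, 14691 and 12525 had such intervals in that fit. Groups did not overlap for 1 member, Herc6, which was lower in every TLQP21 library than in any Saline library, against 0.844% of all genes. Without TLQP21 1 the median was -0.39 and 7 members did not overlap, all lower in TLQP21, beside 3.497% of all genes. The count was 3 without Saline 3 (2.47% of all genes), 2 without Saline 4 (1.81%) and 1 without any other single library (1.33% to 2.05%). Without Saline 2 and TLQP21 4 together, which makes the kinds uneven between treatments, the median was -0.08, 28 members were below 0 and Herc6 did not overlap, beside 3.995% of all genes. In the libraries with Xist alone the median was -0.19 (28 of 32 below 0), and in those with Y-linked transcripts alone it was -0.30 (28 of 32). The 12 members with a response element core in their window had a median of -0.31 and the 11 without one -0.19, a difference that was not tested.

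**Figure D2:**
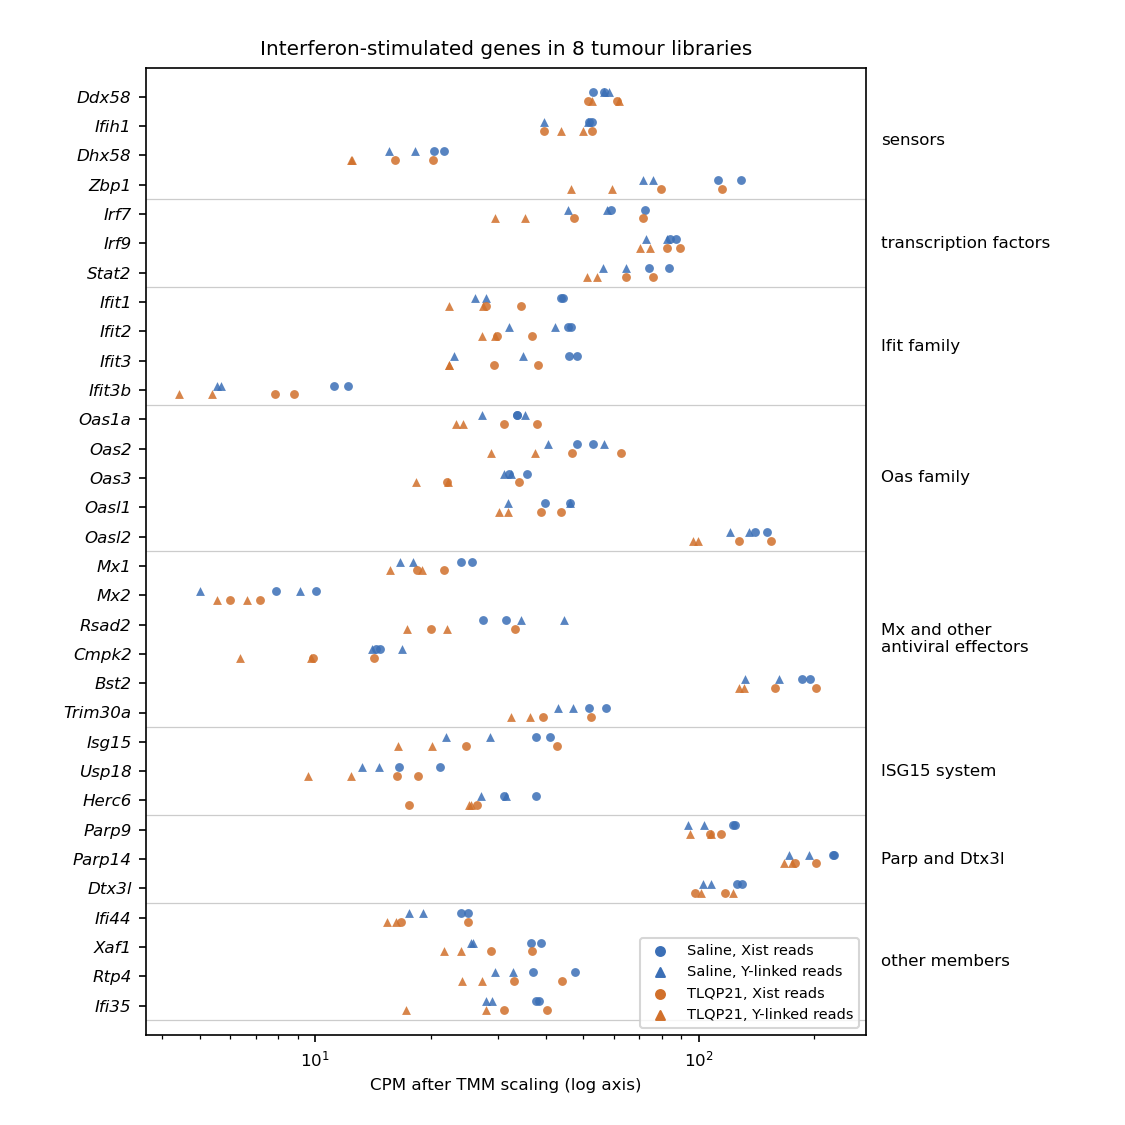
Levels of the 32 members in the 8 libraries, in CPM after TMM scaling on a log axis, grouped by role. Blue marks are Saline and orange marks TLQP21, and circles are libraries with Xist reads and triangles libraries with Y-linked reads. Groups overlap in all rows but Herc6, and in 8 rows every circle lies above every triangle, by very little for Irf9, Stat2 and Rtp4.

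The sensors had a median log2 fold change of -0.19, with 3 of 4 below 0. Zbp1, which senses left-handed nucleic acid and can trigger necroptosis, had the highest level per length among them, a mean of 24.4 CPM per kilobase of the gene length in the table. Its levels were 112, 129, 71.5 and 75.9 CPM in Saline 1 to 4 and 115, 79.8, 59.4 and 46.3 CPM in TLQP21 1 to 4. Libraries with Xist were high in both groups except TLQP21 2, and the groups overlapped widely. Means of Zbp1 were 97.2 ± 27.98 CPM in Saline and 75.1 ± 29.8 in TLQP21 (SD, n = 4 each), with a log2 fold change of -0.37 and an SE of 0.28. Ddx58, which encodes the RNA sensor RIG-I, was the steadiest member and the only one above 0, at 52.9 to 58.3 CPM in Saline and 51.4 to 61.9 in TLQP21. The fold change of Ddx58 was 0.02 on the log2 scale (95% interval -0.18 to 0.22), and its sign turned in several alternatives, as with limma's voom (-0.06).

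Ifih1 encodes MDA5, the sensor of long double-stranded RNA. It was at 52.6, 51.7, 51.3 and 39.4 CPM in Saline 1 to 4 and 52.7, 39.4, 43.8 and 49.998 CPM in TLQP21 1 to 4. Saline 4 lay well below the other Saline libraries, and TLQP21 2 had the same low level, so that the groups overlapped almost fully (log2 fold change -0.07, SE 0.13). Dhx58, which encodes LGP2, a regulator of both RNA sensors, was at 15.6 to 21.6 CPM in Saline and 12.4 to 20.3 in TLQP21 (-0.31).

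The transcription factors had a median of -0.18, with 3 of 3 below 0. Irf9, the DNA-binding subunit of ISGF3, was the highest per length with 14.9 CPM per kilobase. Irf9 was at 87.1, 83.9, 72.96 and 82.8 CPM in Saline 1 to 4 and 89.6, 82.8, 74.8 and 70.3 CPM in TLQP21 1 to 4. These levels were nearly even across libraries (log2 fold change -0.04, SE 0.10), and the sign turned to 0.02 in the libraries with Xist alone and to 0.01 without TLQP21 4. Its partner Stat2 was at 56.4 to 83.7 CPM in Saline and 51.05 to 75.98 in TLQP21 (-0.18). Irf7, the factor that amplifies interferon production, was at 45.5 to 72.3 CPM in Saline and 29.5 to 71.4 in TLQP21 (-0.36, 95% interval -0.93 to 0.22).

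The Ifit family, whose proteins bind viral RNA, had the lowest median of the role groups, -0.41, with 4 of 4 below 0 and 1 at an unadjusted p under 0.05. The 4 genes lie together on chromosome 19 of GRCm38, between 34550694 (the start of Ifit2) and 34650009 (the end of Ifit1). Ifit2 (ENSMUSG00000045932, protein-coding) was at 46.3, 45.5, 42.3 and 32.1 CPM in Saline 1 to 4 and 36.6, 29.8, 27.3 and 29.4 CPM in TLQP21 1 to 4. Saline 1 to 3 were above every TLQP21 library, and Saline 4 lay below TLQP21 1. Means of Ifit2 were 41.5 ± 6.55 CPM in Saline and 30.8 ± 4.05 in TLQP21 (SD, n = 4 each), and the log2 fold change was -0.43 (SE 0.14, edgeR unadjusted p = 0.012, adjusted p = 0.9999). An exact two-sided permutation test over the 70 assignments of libraries gave p = 0.0571.

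Ifit3, whose human counterpart stabilises IFIT1, was the highest of the family per length with 18.9 CPM per kilobase. Ifit3 was at 47.99, 45.98, 22.99 and 34.8 CPM in Saline 1 to 4 and 38.1, 29.2, 22.3 and 22.4 CPM in TLQP21 1 to 4. Saline 1 and 2 were the highest and Saline 3 was close to the lowest TLQP21 libraries (log2 fold change -0.44, SE 0.25). Ifit1, which recognises RNA with an unmethylated cap, was at 26.05 to 44.2 CPM in Saline and 22.3 to 34.3 in TLQP21 (-0.34). Ifit3b, a near copy of Ifit3, was at 5.56 to 12.2 CPM in Saline and 4.42 to 8.79 in TLQP21 (-0.39). Of the 150-base windows of the Ifit3 transcript 18.5% were also found in another gene, and of Ifit3b 16.0%, so the division of reads between the copies is uncertain. The promoter stretches shown above are identical for these copies, while Ifit2 had no core in its windows.

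The Oas family had a median of -0.18, with 5 of 5 below 0 and 1 at an unadjusted p under 0.05. Oas proteins are activated by double-stranded RNA, and the active enzymes make the messenger that switches on RNase L. All lie on chromosome 5, with Oas2, Oas3 and Oas1a in one cluster and Oasl1 and Oasl2 in another. Oas3 (ENSMUSG00000032661, chromosome 5 from 120753098 to 120777661) was at 35.7, 31.9, 31.02 and 32.5 CPM in Saline 1 to 4 and 34.04, 22.02, 22.1 and 18.3 CPM in TLQP21 1 to 4. The Saline libraries lay close together and TLQP21 2 to 4 far below them, while TLQP21 1 lay within the Saline range. Means of Oas3 were 32.8 ± 2.02 CPM in Saline and 24.1 ± 6.83 in TLQP21 (SD, n = 4 each), with a log2 fold change of -0.44 (SE 0.18, edgeR unadjusted p = 0.0311, adjusted p = 0.9999; exact permutation p = 0.114).

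Oasl2, an Oas-like protein with ubiquitin-like domains, had the highest level per length of the family (20.1 CPM per kilobase). Oasl2 was at 139.8, 151, 120.3 and 135 CPM in Saline 1 to 4 and 155, 127, 96.6 and 99.2 CPM in TLQP21 1 to 4. TLQP21 1 was the highest library and TLQP21 3 and 4 the lowest, so that the TLQP21 group enclosed the Saline group (log2 fold change -0.19, SE 0.15). The remaining members were Oas1a at 27.2 to 35.1 CPM in Saline and 23.3 to 37.8 in TLQP21 (-0.15), Oas2 at 40.5 to 56.6 CPM in Saline and 28.7 to 62.6 in TLQP21 (-0.18) and Oasl1 at 31.7 to 46.2 CPM in Saline and 30.1 to 43.6 in TLQP21 (-0.18). Values of Oas1a are uncertain, because 32.4% of the 150-base windows of its transcript were also in another gene, mostly Oas1g. In the libraries with Xist alone the log2 fold changes of Oas1a and Oas2 turned to 0.05 and 0.13.

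Mx and other antiviral effectors had a median of -0.33, with 6 of 6 below 0 and 2 at an unadjusted p under 0.05. Those were Rsad2 and Cmpk2, neighbours on chromosome 12. Rsad2 encodes viperin, an enzyme that makes a chain-terminating nucleotide, and Cmpk2 a nucleotide kinase that supplies its substrate. Rsad2 (ENSMUSG00000020641, from 26442746 to 26456452) was at 31.3, 27.4, 34.4 and 44.5 CPM in Saline 1 to 4 and 33.1, 20.1, 17.3 and 22.05 CPM in TLQP21 1 to 4. Saline 4 was the highest library and TLQP21 3 the lowest, and TLQP21 1 lay above Saline 1 and 2. Means of Rsad2 were 34.4 ± 7.32 CPM in Saline and 23.1 ± 6.92 in TLQP21 (SD, n = 4 each), with a log2 fold change of -0.57 (SE 0.22, edgeR unadjusted p = 0.024, adjusted p = 0.9999; exact permutation p = 0.0857).

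Cmpk2 (ENSMUSG00000020638, from 26469204 to 26479837) was at 14.4, 14.7, 14.04 and 16.8 CPM in Saline 1 to 4 and 14.3, 9.85, 9.76 and 6.36 CPM in TLQP21 1 to 4. TLQP21 1 was within the Saline range, and TLQP21 2 to 4 were below every Saline library. Means of Cmpk2 were 15.001 ± 1.23 CPM in Saline and 10.1 ± 3.24 in TLQP21 (SD, n = 4 each), with a log2 fold change of -0.58 (SE 0.22, edgeR unadjusted p = 0.0245, adjusted p = 0.9999; exact permutation p = 0.0571). As differences of mean log2 CPM, Rsad2 was at -0.18 in the libraries with Xist and -1.001 in those with Y-linked transcripts, and Cmpk2 at -0.30 and -0.96. Rsad2 was the 1 member with an unadjusted p under 0.05 in edgeR's test of this inequality (interaction -0.86, adjusted p = 0.842 over all genes). No member and 0 of 18238 genes passed that test after adjustment (0%). Of all 18238 genes 876 had an unadjusted p under 0.05, a larger share than 1 of 32 members.

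Bst2, which encodes tetherin, a membrane protein that holds budding virus at the cell surface, had by far the highest level per length of all members (179 CPM per kilobase). It was at 186, 194, 132 and 162 CPM in Saline 1 to 4 and 202, 158, 131 and 127 CPM in TLQP21 1 to 4. The highest library was TLQP21 1 and the lowest TLQP21 4, so that the treatments overlapped fully (log2 fold change -0.12, SE 0.17). Trim30a, a negative regulator of inflammatory signalling, was at 43.04 to 57.2 CPM in Saline and 32.4 to 52.3 in TLQP21 (-0.31, 95% interval -0.66 to 0.03). The dynamin-like GTPases were Mx1 at 16.6 to 25.7 CPM in Saline and 15.6 to 21.7 in TLQP21 (-0.17) and Mx2 at 5.01 to 10.04 CPM in Saline and 5.56 to 7.18 in TLQP21 (-0.34). C57BL/6 mice carry defective forms of both Mx genes, and Mx2 is annotated in the table as a polymorphic pseudogene. Mx2 was also the lowest of all members per length, at 1.99 CPM per kilobase.

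The ISG15 system had a median of -0.31, with 3 of 3 below 0. Isg15, the ubiquitin-like modifier, had the second highest level per length of all members (38.5 CPM per kilobase). Isg15 was at 37.6, 40.9, 21.96 and 28.6 CPM in Saline 1 to 4 and 42.6, 24.7, 20.1 and 16.4 CPM in TLQP21 1 to 4. The 3 highest libraries all had Xist and came from both treatments (log2 fold change -0.31, SE 0.30, 95% interval -0.98 to 0.35). Usp18, the protease that removes ISG15 and restrains the receptor, was at 13.3 to 21.1 CPM in Saline and 9.60 to 18.6 in TLQP21 (-0.20).

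Herc6, the main ligase that attaches ISG15 in mice (ENSMUSG00000029798, chromosome 6 from 57581000 to 57664632), was the 1 member whose groups did not overlap. Herc6 was at 37.6, 31.1, 31.4 and 27.1 CPM in Saline 1 to 4 and 26.3, 17.6, 25.2 and 25.5 CPM in TLQP21 1 to 4. The gap was narrow, between the lowest Saline library, Saline 4, and the highest TLQP21 library, TLQP21 1, while TLQP21 2 lay far below the rest. Means of Herc6 were 31.8 ± 4.33 CPM in Saline and 23.6 ± 4.09 in TLQP21 (SD, n = 4 each), with a log2 fold change of -0.43 (SE 0.15, edgeR unadjusted p = 0.0193, adjusted p = 0.9999). Its exact permutation p was 0.0286, the smallest that 70 assignments allow. With upper-quartile scaling the groups of Herc6 overlapped. Of the 150-base windows of its transcript 17.9% were also in the overlapping gene Gm45193, so its counts are uncertain.

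The Parp and Dtx3l genes, whose products work together in ADP-ribosylation and ubiquitination, were abundant and nearly level, with a median of -0.08 and 3 of 3 below 0. Parp9 was the highest per length with 22.3 CPM per kilobase. Parp9 was at 124, 123, 103 and 93.9 CPM in Saline 1 to 4 and 114, 107, 95.1 and 107 CPM in TLQP21 1 to 4. Saline 4 was the lowest library, and the treatments overlapped (log2 fold change -0.07, SE 0.11). Its partner Dtx3l was at 102 to 129 CPM in Saline and 97.5 to 123 in TLQP21 (-0.08) and Parp14 at 172 to 224 CPM in Saline and 167 to 201 in TLQP21 (-0.17). In the libraries with Y-linked transcripts alone, Parp9 was at 0.039 and Dtx3l at 0.097 on the log2 scale. Parp9 and Dtx3l overlap on opposite strands in 9.40% and 8% of their exon bases, and since the strand setting of the counting was not given, reads there could belong to either.

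The remaining members, Ifi44, Xaf1, Rtp4 and Ifi35, had a median of -0.19, with 4 of 4 below 0. Ifi35, an interferon-induced leucine zipper protein, was the highest of them per length (18.04 CPM per kilobase). Ifi35 was at 38.3, 37.7, 27.9 and 28.9 CPM in Saline 1 to 4 and 40.3, 31.03, 27.9 and 17.3 CPM in TLQP21 1 to 4. The highest and the lowest library were both TLQP21 (log2 fold change -0.19, SE 0.23). Of its exon bases 16.8% overlap Gm11626 on the opposite strand.

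Ifi44 was at 24.9, 23.95, 19.1 and 17.5 CPM in Saline 1 to 4 and 24.97, 16.8, 15.4 and 16.3 CPM in TLQP21 1 to 4. TLQP21 1 stood at the level of Saline 1 and 2, and the other TLQP21 libraries below every Saline library (log2 fold change -0.22, SE 0.18). Xaf1, an antagonist of the apoptosis inhibitor XIAP, was at 25.5 to 38.7 CPM in Saline and 21.7 to 36.8 in TLQP21 (-0.18). Rtp4, a chaperone of opioid and taste receptors that interferon induces, was at 29.4 to 47.5 CPM in Saline and 24.1 to 44.1 in TLQP21 (-0.19), and 8.60% of the windows of its transcript were also in another gene. With Saline 2 and TLQP21 4 both left out, Bst2, Rtp4 and Ifi35 turned to 0.03, 0.07 and 0.06.

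**Figure D3:**
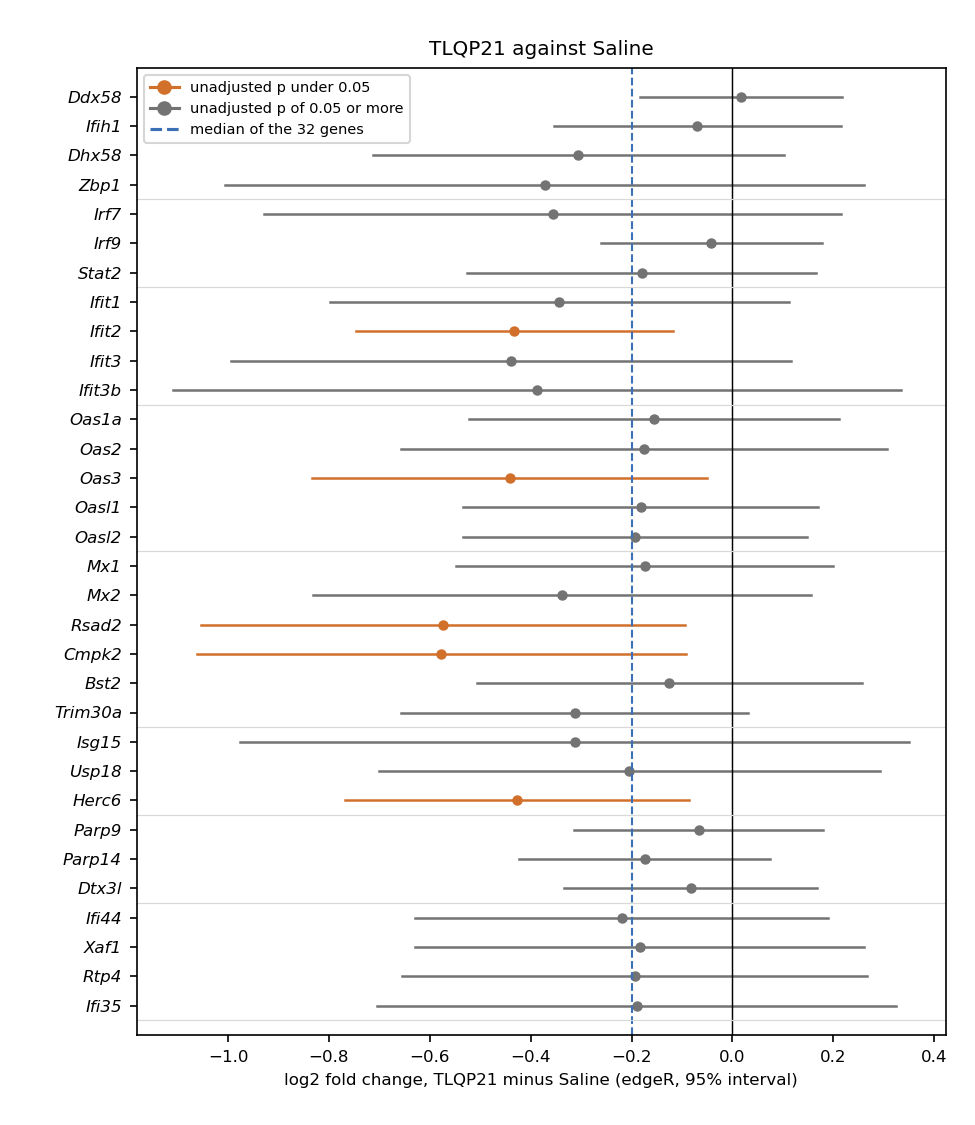
Log2 fold changes of the 32 members, TLQP21 minus Saline, from edgeR, with 95% intervals. Orange marks 5 genes with an unadjusted p under 0.05, and the dashed line the members' median of -0.20. All intervals but those 5 cross 0, and Ddx58 alone lies above 0, at 0.02.

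The members' levels differed widely between libraries of the same treatment. Each member was centred on its own mean log2 CPM over the 8 libraries, and the members' mean was then taken per library. This mean was 0.31, 0.29, -0.09 and 0.03 in Saline 1 to 4 and 0.25, -0.11, -0.31 and -0.36 in TLQP21 1 to 4. Saline 1, Saline 2 and TLQP21 1 thus formed the upper end, and TLQP21 3 and 4 the lower end. The share of all counts taken by the 32 members ran from 0.134% in TLQP21 4 to 0.198% in Saline 1. In Saline 1 all 32 members were above their own mean, in TLQP21 1 31 and in Saline 2 30, and in TLQP21 3 none. The lowest library of a member was TLQP21 4 for 15 members and TLQP21 3 for 11. Rsad2 and Cmpk2 departed from this order, since both were highest in Saline 4, as the map of centred levels shows.

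**Figure D4:**
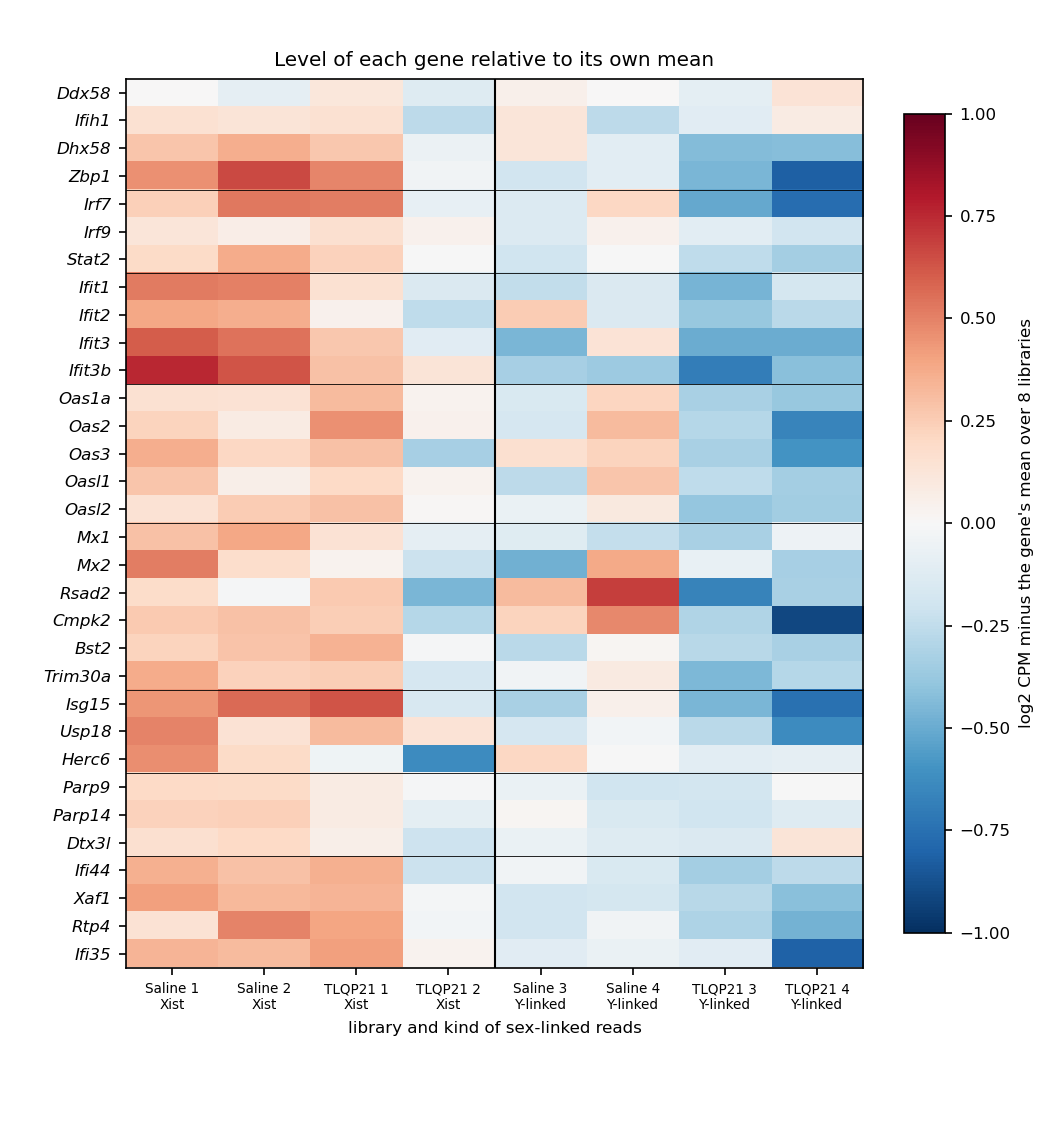
Log2 CPM of each member minus its own mean over the 8 libraries, with libraries ordered by kind and then by treatment and the vertical line between the kinds. Red is above and blue below the gene's mean. Saline 1, Saline 2 and TLQP21 1 are red in nearly all rows and TLQP21 3 and 4 blue in nearly all, while Rsad2 and Cmpk2 are also red in Saline 4.

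The members also lay lower in libraries 3 and 4 than in libraries 1 and 2, whichever the treatment. In both groups kind went with the replicate number. It cannot be told apart from other differences between libraries 1 and 2 and libraries 3 and 4. In a fit with treatment and kind, 31 of 32 members lay lower in the libraries with Y-linked transcripts than in those with Xist, against 47.8% of all genes. The median log2 difference was -0.36, against 0.01 for all genes and beside the median of -0.20 between treatments, from which it was not tested to differ. At an unadjusted p under 0.05, 22 members were lower with Y-linked transcripts, against 6.52% of all genes. After adjustment in edgeR 1 member passed, against 0.373% of all genes (68). DESeq2 called 12 members and limma's voom with quality weights 3, against 593 and 320 of all genes. With 1 library left out, edgeR called 1 member between the kinds without TLQP21 4 and none without any other library.

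The member that passed was Ifit3b, at 12.2, 11.2, 5.70 and 5.56 CPM in Saline 1 to 4 and 8.79, 7.86, 4.42 and 5.37 CPM in TLQP21 1 to 4. Each of the 4 libraries with Xist lay above each of the 4 with Y-linked transcripts, in both treatments. The log2 difference of Ifit3b was -0.91 (SE 0.15, edgeR adjusted p = 0.0462), and of the 8 fits with 1 library left out it passed in 1, without TLQP21 4 (adjusted p = 0.0284). By the size of the difference the next were Zbp1 with -0.79 (edgeR adjusted p = 0.0508) and Isg15 with -0.76. The kinds did not overlap for 8 members, Zbp1, Irf9, Stat2, Ifit3b, Usp18, Xaf1, Rtp4 and Ifi35, all lower with Y-linked transcripts, against 4.56% of all genes. The gap between TLQP21 2 and Saline 4 was very narrow for Irf9 (82.763 against 82.757 CPM), Stat2 (64.685 against 64.640) and Rtp4 (33.02 against 32.79). Rsad2 (-0.00056) and Herc6 (-0.01), which were among the members with the lowest p between treatments, hardly differed between the kinds on average. These averages join opposite directions in Saline and TLQP21. Rsad2 was at 34.4 and 44.5 CPM in Saline 3 and 4 against 31.3 and 27.4 in Saline 1 and 2. In TLQP21 3 and 4 it was at 17.3 and 22.05 CPM, against 33.1 and 20.1 in TLQP21 1 and 2. Herc6 lay lower with Y-linked transcripts in Saline and higher with them in TLQP21, by the means of their libraries. The plot of both differences shows the members spread along both axes, with Rsad2, Cmpk2 and Herc6 far to the side of treatment and Ifit3b, Zbp1 and Isg15 far to the side of kind.

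**Figure D5:**
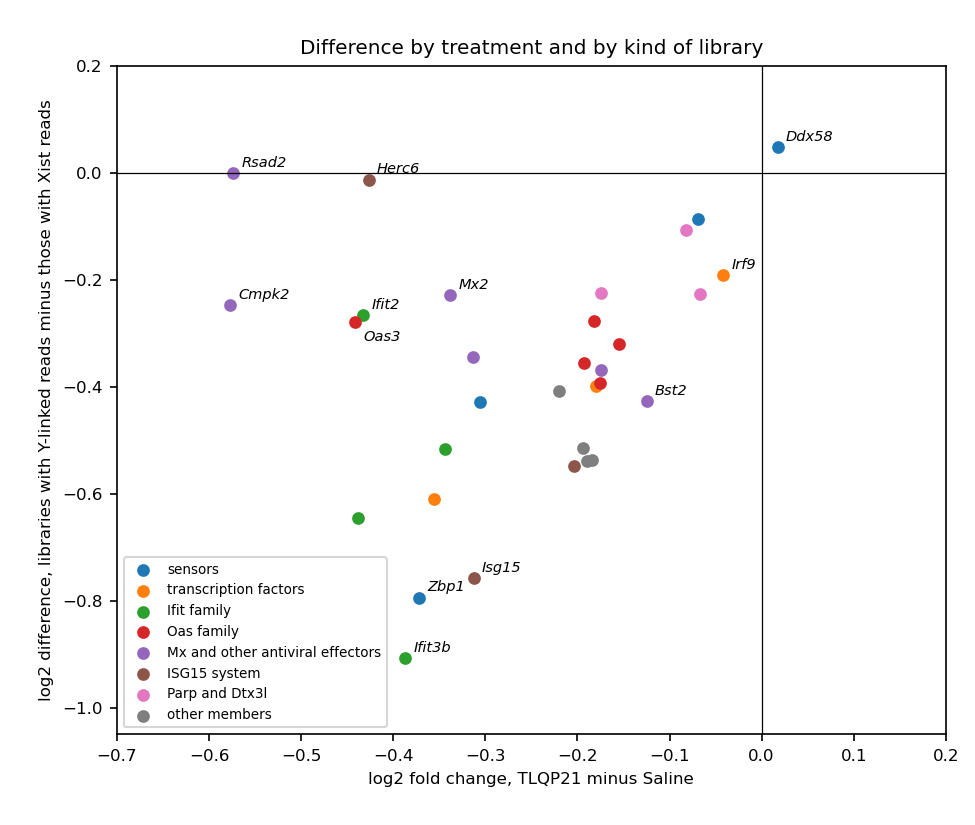
Log2 fold change by treatment (TLQP21 minus Saline, horizontal) against the log2 difference by kind of library (Y-linked minus Xist, vertical) for the 32 members, coloured by role. Nearly all points lie below 0 on both axes, with Ddx58 above 0 on both axes. Rsad2, at -0.57 by treatment, lies at 0 by kind, and Ifit3b, at -0.91 by kind, at -0.39 by treatment.

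The step before these genes was almost unread at this depth. None of the 20 type I and III interferon ligands listed passed the filter on low counts. For 15 of them no read was counted, and the other 5 had 66 reads in all over the 8 libraries. Ifnb1, the interferon-beta gene, had 17 reads, of which 12 were in Saline 4, the library in which Rsad2 and Cmpk2 were highest. The other libraries had at most 2 reads of Ifnb1. Rsad2 and Cmpk2 were the only 2 members highest in Saline 4, where 15 members were above and 17 below their own mean. A count of 0 allows up to 3 counts, a level of 0.0895 to 0.106 CPM in these libraries, which covers counting error only.

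The rest of the pathway lay slightly lower or level, and no gene of it passed edgeR's test after adjustment. Of 13 receptor and JAK-STAT genes 11 were below 0, with a median of -0.07 and none at an unadjusted p under 0.05. Irf8, a transcription factor of myeloid cells, was among those with the smallest p there (log2 fold change -0.34). Of 12 adaptors and kinases of nucleic acid sensing 10 were below 0 (median -0.16), again none at that level, led by Unc93b1, the chaperone of endosomal Toll-like receptors (-0.30), and Tlr7 (-0.28). For 1 of these 12 the groups did not overlap, with TLQP21 lower. Of 9 tested negative regulators 7 were below 0 (median -0.23), and 1 had an unadjusted p under 0.05. This was Socs3, a feedback inhibitor of JAK kinases, with 182 to 330.4 CPM in Saline and 126 to 177 in TLQP21 without overlap (log2 fold change -0.63, edgeR unadjusted p = 0.00793). Samhd1, a hydrolase of deoxynucleotides, came next with -0.25. Over all genes 2.26% were lower at an unadjusted p under 0.05, and 0.844% were lower without overlap. Trex1, a DNA exonuclease that restrains sensing, had no read counted, and all of its exon bases overlap Atrip on the same strand.

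Other interferon-stimulated genes that are not among the 32 resembled them in the median. Of 50 tested, 44 were below 0 with a median of -0.20 and none at an unadjusted p under 0.05, led by Uba7, the activating enzyme of ISG15 (-0.26), and the nuclear body protein Sp110 (-0.55). Genes induced mainly by interferon-gamma lay lower still, with 20 of 20 below 0 and a median of -0.36. At an unadjusted p under 0.05, 5 of these 20 were lower, against 2.26% of all genes. The smallest p were those of the guanylate-binding proteins Gbp6 (-0.53) and Gbp5 (-0.77). These 2 lists also lay lower in the libraries with Y-linked transcripts than in those with Xist, with median log2 differences of -0.36 and -0.42. At an unadjusted edgeR p under 0.05, 24 of the 50 and 14 of the 20 genes were lower there, against 6.52% of all genes. After adjustment 2 and 0 of them passed, against 0.373% of all genes. Whether these lists differ from the 32 members was not tested.

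Markers of cells that can carry this response are given beside it. Of 12 macrophage and monocyte markers 11 were below 0 (median -0.21), and their summed level was 1970 to 2252 CPM in Saline and 1475 to 2336 in TLQP21. TLQP21 4, where the members' mean was lowest, also had the lowest macrophage sum. TLQP21 1 had the highest sum and Saline 4 the next, 2252 CPM. Saline 1, where the members' mean was highest, had a sum of 2087 CPM. C1qa, C1qb and C1qc made up much of these sums, and each was highest in TLQP21 1 and lowest in TLQP21 4. Not every marker had this order, since Mrc1 was highest in TLQP21 4 (207 CPM) and Cd14 in Saline 4 (378 CPM). At an unadjusted edgeR p under 0.05, 3 of the 12 were lower in TLQP21, against 2.26% of all genes. These were Adgre1 (log2 fold change -0.47), Ly6c2 (-1.20) and Cd14 (-0.43), and 0 passed after adjustment. Adgre1 was lower in every TLQP21 library than in any Saline library, against 0.844% of all genes, and was highest in Saline 3. Neutrophil markers were below 0 in 10 of 10 (median -0.99), with sums of 313 to 1060.1 CPM in Saline and 219 to 453 in TLQP21, the highest in Saline 4. Of 8 plasmacytoid dendritic cell markers, the type known for the highest interferon output, 6 were below 0, with sums of 342 to 948 CPM and 351 to 572. That sum was mostly Klk1, which the pancreas also expresses, while the defining marker Siglech was at 1.40 to 2.54 CPM in the 8 libraries. Of 10 T cell markers 5 were below 0 (sums of 62.6 to 95.3 and 69.7 to 101 CPM), and of 8 conventional dendritic cell markers 4 (84.0 to 146 and 96.3 to 119). Tumour epithelium markers were below 0 in 3 of 10, with sums of 6877 to 7314 and 7275 to 7636 CPM. Markers were also below 0 in 8 of 8 for B and plasma cells, 8 of 8 for acinar cells, 6 of 6 for erythroid cells, 5 of 7 for natural killer cells, 6 of 9 for fibroblasts and 2 of 7 for endothelium. No marker of these lists was at 0 in all libraries, and the part of cell composition in the members' levels was not tested.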

How the data were processed

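RNA of 8 mouse tumour libraries was sequenced as 150-base read pairs, per the labels' protocols. The authors deposited raw counts of reads for each gene, as whole numbers. The genome build GRCm38 (mm10), featureCounts 1.5.0-p3, HISAT2 2.0.5 and DESeq2 1.32.0 are named per the submitters' processing notes, and the strand setting is not given in the sources used here. All 32 members had the position of the GENCODE M21 annotation of GRCm38.

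The main test on these deposited counts used edgeR 4.0.16 (R 4.3.3, default low-count filter by group, TMM scaling, quasi-likelihood test without covariates, Benjamini-Hochberg adjustment over 18238 genes, threshold 0.05). The split by kind was tested with treatment in the model and, for inequality of treatment between kinds, with an interaction. Single values were compared by exact two-sided permutation of log2 CPM (prior count 2, with 0.5 as an alternative). DESeq2 1.42.0, limma 3.58.1 (voom with sample quality weights), other scalings and filters, a replicate block, and left-out libraries were alternatives. Depth was 28.4 to 33.5 M counts per library. Promoter sequences are those of RefSeq on GRCm38.p6.

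Replicate numbers come from the sample titles, and nothing says that they mark shared animals or days. The members and gene lists were chosen with earlier results of these data known. Values in every library are printed for members with an unadjusted edgeR p under 0.05 or without overlap between groups, for the highest member per length in each role group, and for members with a library far from the others. Other members are given by range. Of each pathway list the 2 tested genes with the smallest unadjusted p are named, plus genes on which a count rests; 1 gene that this rule names is not reported here. The per-library values of Ifit3b, the ligand Ifnb1, Trex1, Klk1 and Siglech were chosen after their values were seen. Mnda, of the list of other interferon-stimulated genes, was not found under its name, and Ifi44l had no reads.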

Additional observations from a re-analysis of the deposited data

Results flagged for a closer look

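In 3 of 64 combinations of a member with a treatment group, 1 library lay farther from the rest than Dixon's 95% limit for 4 samples allows. Chance gives this in about 1 in 20 combinations. Ifih1, the MDA5 sensor, was at 39.4 CPM in Saline 4 and at 51.3 to 52.6 CPM in the other Saline libraries. Herc6, the ISG15 ligase, was at 17.6 CPM in TLQP21 2, below the 25.2 to 26.3 CPM of the other TLQP21 libraries. Ifi44 was at 24.97 CPM in TLQP21 1 and at 15.4 to 16.8 CPM in the other TLQP21 libraries.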

How the results depend on the processing

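Across 640 alternatives for single members, 621 kept the direction and the side of the threshold and 19 turned the sign, in 11 members, while 21 members kept theirs throughout. With limma's voom Ddx58 was at -0.058. With Xist libraries alone Irf9 was at 0.023, Oas1a at 0.048 and Oas2 at 0.13. With Y-linked libraries alone Ddx58 was at -0.0023, Ifih1 at 0.049, Mx1 at 0.0012, Parp9 at 0.039 and Dtx3l at 0.097. With libraries left out, Ddx58 ran from -0.059 (without Saline 2 and TLQP21 4) to 0.063, Ifih1 from -0.16 to 0.0034 (without TLQP21 2), and Irf9 from -0.10 to 0.021, Bst2 from -0.28 to 0.031, Rtp4 from -0.38 to 0.068 and Ifi35 from -0.39 to 0.058 (all highest without Saline 2 and TLQP21 4). The causes of these turns were not tested.

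The members' median lay between -0.39 (without TLQP21 1) and -0.14 (without TLQP21 3) when single libraries were left out. Genes called between treatments numbered 4 by DESeq2 and 1 by limma's voom, and 0 in every other alternative run. Members without overlap numbered 0 with upper-quartile scaling (0.691% of all genes were lower without overlap), 1 to 7 without single libraries (3 without Saline 3, 2 without Saline 4), and, with 2 libraries against 2, 10 with Xist (17.8% of all genes) and 21 with Y-linked transcripts (14.5%), all lower in TLQP21. Between the kinds of library, alternatives chosen after seeing the data called 593 genes by DESeq2, 320 by limma's voom and 23 to 77 without single libraries, of which 12, 3 and 0 to 1 were members. Promoter windows cut to the 250 bases before the start held cores in 10 members. In the fit with a replicate block the members' median was -0.23, 31 were below 0 and 0 genes were called. Same-numbered libraries correlated at 0.11, 0.19, 0.27 and -0.05 after the group means were taken off, so the numbers were not taken to pair them. No library correlated best with its own number. The best match of number 1 was 2, of 2 it was 1, of 3 it was 4 and of 4 it was 3, each of the same kind. A prior count of 0.5 changed no permutation call of a member.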
